A study of Mus musculus with 14 samples.

Results

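Ovulated mouse oocytes that had lost Mff in the oocyte were compared with ovulated oocytes that kept it. The comparison took the 6 ovulated libraries of the 14 in the series, chosen by their labels, and covered every gene of the ovulated count table. Both groups were Mff fl/fl, that is, both Mff alleles carried loxP sites. The 3 WT libraries had no Cre, and the 3 CKO libraries also carried Gdf9-Cre, whose promoter drives Cre in oocytes, so genotype and Cre cannot be told apart. The other 8 libraries came from germinal vesicle (GV) oocytes of the same 2 genotypes. Per the labels the material was single-cell samples in lysis buffer, copied with SMART-SeqII and preamplified by PCR. Strain, age, and the number of oocytes and animals behind a library were not found in the sources used here. The p-values thus measure the spread between libraries alone, which may be technical.

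MFF sits in the outer mitochondrial membrane and recruits the GTPase DRP1, which constricts and divides the organelle. The ovulated oocyte is arrested in the second meiotic division and does not transcribe. Its mRNA was made during growth, and between the GV stage and ovulation many of these maternal mRNAs lose their poly(A) tail and are degraded, while others gain a longer tail and are translated. A level here is therefore what remains of a stored mRNA that carries enough poly(A) to be copied into cDNA.

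Library totals ran from 26690765 to 27833650 counts, and the 100 most abundant genes took 24.99% (CKO 2) to 35.37% (WT 3) of them. The first principal component held 50.3% of the variance and placed CKO 2 at -85.36, CKO 3 at -44.72 and CKO 1 at -14.11, with the WT libraries at 38.89 to 62.6. Oocyte markers summed to 24125 to 37500 CPM (counts scaled to a common library total, with TMM normalisation) in WT and 19006 to 28678 CPM in CKO; all 12 were listed. Of 18 granulosa and cumulus markers 11 were listed and 3 tested, with 0 called. Their sum was 93.6 to 127 CPM in WT and 65.8 to 92.5 CPM in CKO, most of it the aromatase gene Cyp19a1, itself a granulosa marker. Among the other members, Foxl2, Amh, Inha, Lum and Fst were not listed and Ptx3, Tnfaip6 and Inhbb were at 0.125 CPM or less. Carry-over of RNA from these cells was not tested. Theca and stroma markers (6 of 9 listed, 4 tested) summed to 6.07 to 10.1 CPM in WT and 4.96 to 5.56 CPM in CKO, and markers of blood, immune and endothelial cells (10 of 14 listed, 4 tested) to 88.0 to 169 CPM and 54.3 to 108 CPM, mostly Pecam1, with 0 called in either list. Values are shares of each library, so a change in RNA per oocyte cannot be seen in them.

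Mff (Entrez gene 75734, chr1:82724890-82752390 in GRCm38.p6, per RefSeq) measured 371, 355 and 844 CPM in WT and 38.4, 53.3 and 66.7 CPM in CKO. All 3 CKO libraries lay far below all 3 WT libraries, and WT 3 was the highest (log2 fold change -3.31, SE 0.36, adjusted p = 0.000155). The sources used here do not name the deleted exons, and the reads left in CKO may belong to undeleted ones.

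Loss of Mff went with many more rises than falls. Of 12010 tested genes 942 were called at an adjusted p under 0.05 in edgeR's quasi-likelihood test, which is 7.84% of them, 774 higher (6.44%) and 168 lower (1.4%) in CKO. The median log2 fold change was 1.99 among the genes called higher, -1.28 among those called lower and -0.001 over all tested genes. Rises were also steeper: 384 of the 774 passed a log2 fold change of 2, and 25 of the 168 falls passed -2. The genes that rose had a median mean level of 5.03 CPM in WT and 20.3 CPM in CKO, whereas those that fell had medians of 45.2 and 18.2 CPM. CPM are not corrected for transcript length. In FPKM, which are, the median WT level was 3.80 for genes called higher, 16.42 for those called lower and 3.97 over all tested genes. These levels also gave the calls.

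Together the genes called higher held 1.65%, 1.64% and 1.42% of the normalised counts in WT 1, 2 and 3, and 3.58%, 8.5% and 5.11% in CKO 1, 2 and 3. The genes called lower held 1.9%, 1.7% and 2.21% in WT and 1.14%, 0.89% and 0.96% in CKO. The 3 CKO libraries were not alike: CKO 2 had the highest CKO level in 661 of the 774 risers and CKO 1 the lowest in 641. These are values that chose the genes, given as a description.

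The number of calls followed single libraries. It was 341 without CKO 2, 1652 without CKO 1, 514 without WT 1, 565 without WT 2 and 461 without WT 3, against 765 without CKO 3. Without WT 3 and CKO 2, the outermost pair, it was 235 (214 higher, 21 lower). The share of rises was 82.2% of calls, 59.2% (533 higher, 368 lower) once each library's trend with transcript length was removed, 65.0% with limma's quality weights and 94.3% on log2(FPKM + 1). On FPKM with no filter 13 genes passed, all higher, so nearly every call below is lost at that setting.

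Genes of mitochondrial fission and fusion were called higher at a share near that of all genes. Of 24 tested genes 2 rose (8.3%, against 6.44% of all tested genes) and 1, Mff, fell (4.2%, against 1.4%). The median log2 fold change of the list was 0.005. Fis1, an outer-membrane protein of the fission machinery, measured 5.13, 3.46 and 5.20 CPM in WT and 13.2, 32.1 and 22.0 CPM in CKO. Its groups did not overlap and CKO 2 was highest (log2 fold change 2.29, SE 0.39, adjusted p = 0.00241). Mtfr1l, an outer-membrane regulator of mitochondrial shape, measured 36.3, 7.68 and 26.6 CPM in WT and 71.4, 99.2 and 104 CPM in CKO, with all CKO libraries above all WT libraries (log2 fold change 1.96, SE 0.42, adjusted p = 0.00975). That call was lost without CKO 2 (adjusted p = 0.0743), when 1 member of the list rose.

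The core machines, named here after their values were seen, did not pass. Dnm1l, which encodes DRP1, measured 203, 220.2 and 208 CPM in WT and 216, 188 and 229 CPM in CKO, and the groups overlapped (log2 fold change 0.00, SE 0.23, adjusted p = 0.995). Of genes for fusion GTPases, Mfn1 (log2 fold change -0.01, adjusted p = 0.99) and Opa1 (0.02, adjusted p = 0.973) had values near 0. Mief1, another DRP1 receptor, at 1.09 (adjusted p = 0.0649), and the fusion GTPase gene Mfn2, at 1.41 (adjusted p = 0.125), missed the threshold. Of 13 genes of the inner-membrane contact sites and cristae 1 rose, Mtx2 (1.88, adjusted p = 0.00573), which lost its call without WT 3 and CKO 2 together (adjusted p = 0.117).

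The largest rises were of genes at low CPM in WT. Chchd2, a small mitochondrial protein that can also act on transcription, measured 12.0, 7.83 and 5.38 CPM in WT and 95.5, 333 and 143 CPM in CKO. CKO 2 stood highest, and the lowest CKO library exceeded the highest WT library several times over (log2 fold change 4.50, SE 0.46, adjusted p = 0.000124). Cox7c, a small subunit of cytochrome c oxidase, measured 7.75, 5.61 and 2.45 CPM in WT and 72.6, 140.3 and 101 CPM in CKO, again with no overlap (log2 fold change 4.31, SE 0.41, adjusted p = 6.83e-05). Hint1, a purine nucleotide hydrolase, measured 6.18, 5.04 and 4.07 CPM in WT and 56.0, 142 and 81.1 CPM in CKO. Every CKO library was far above every WT library (log2 fold change 4.19, SE 0.37, adjusted p = 5.18e-05).

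Psmb7, a catalytic subunit of the proteasome, measured 3.00, 3.50 and 2.75 CPM in WT and 26.8, 92.9 and 30.0 CPM in CKO. CKO 1 and CKO 3 were alike and CKO 2 higher, all far above WT (log2 fold change 4.01, SE 0.46, adjusted p = 0.000225). Figla, a transcription factor that switches on zona pellucida genes in young follicles, measured 1.01, 0.941 and 0.525 CPM in WT and 8.66, 22.8 and 10.2 CPM in CKO, with no overlap (log2 fold change 4.06, SE 0.50, adjusted p = 0.000309). Phpt1, a protein histidine phosphatase, measured 0.712, 0.979 and 0.962 CPM in WT and 7.32, 18.2 and 17.9 CPM in CKO, with CKO 1 below the other CKO libraries (log2 fold change 4.03, SE 0.47, adjusted p = 0.000227). Snrnp25 of the minor spliceosome, Pet100, which helps assemble cytochrome c oxidase, and Mrpl33 of the mitochondrial ribosome were all under 1 CPM in each WT library and at 3.98 to 17.9 CPM in CKO, with log2 fold changes of 4.62, 4.32 and 4.15. Dcpp3, the tenth of the largest rises, measured 0.862, 0.527 and 0 CPM in WT and 5.60, 6.93 and 9.53 CPM in CKO, and no fold is given because a WT library was at 0.

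**Figure D1:**
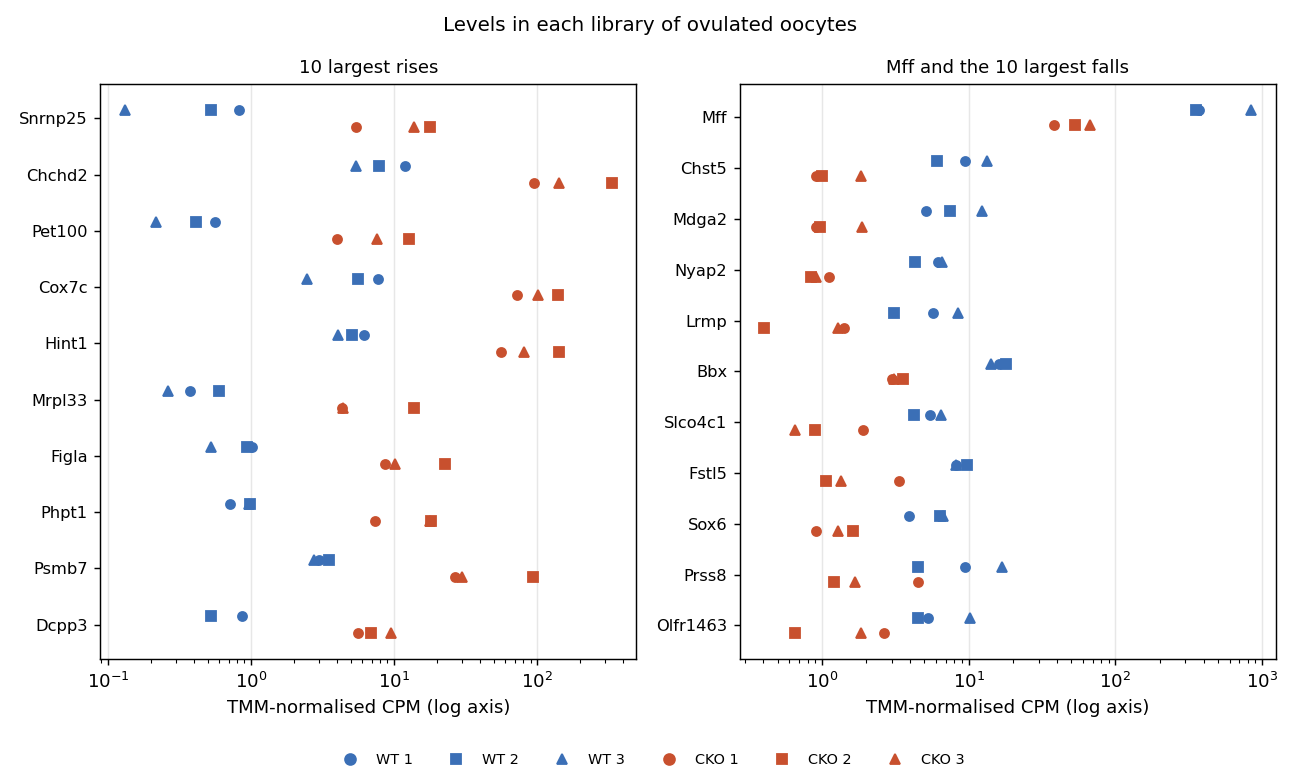
Level of the named genes with the largest rises and falls in each ovulated library, on a log axis in TMM-normalised CPM, with blue points for WT and red for CKO and a marker shape for each replicate number. The CKO points lie above the WT points for the rises and below them for the falls. The rule that chose these genes, Mff apart, required this. The Dcpp3 level of 0 in WT 3 cannot be drawn on the log axis.

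Abundant mRNAs rose too, by less. Elobl, an oocyte gene related to elongin B, measured 386, 324 and 210.4 CPM in WT and 866, 1983 and 1662 CPM in CKO, and no CKO library came near WT (log2 fold change 2.29, SE 0.33, adjusted p = 0.00106). Skp1a, an adaptor of cullin ubiquitin ligases, measured 534, 443 and 762 CPM in WT and 1147, 1587 and 1749.9 CPM in CKO, with no overlap (log2 fold change 1.37, SE 0.28, adjusted p = 0.00761). Ooep, a protein of the subcortical maternal complex, measured 331, 279.8 and 375 CPM in WT and 622, 1626 and 847 CPM in CKO. CKO 2 was the highest library (log2 fold change 1.65, SE 0.32, adjusted p = 0.00593).

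The nuclear import receptor Kpna2 (1.40), the deubiquitinase Uchl1 (1.70) and the elongin Eloc (1.48) rose as well, at CKO levels of 501 to 1208 CPM against 219 to 373 CPM in WT. The polyubiquitin gene Ubb, 801, 769 and 987 CPM in WT and 1396, 2359 and 1457 CPM in CKO, and Fbxw15, an F-box gene of the oocyte, 331, 360.3 and 436 CPM in WT and 577, 1039 and 687 CPM in CKO, were the other two of the 8 most abundant, both with no overlap of the groups (1.03, adjusted p = 0.032, and 1.03, adjusted p = 0.0295). Ubb lost its call without CKO 2, WT 1, WT 2 or WT 3 (adjusted p = 0.0546 to 0.138) and Fbxw15 without CKO 2, WT 1 or WT 2 (adjusted p = 0.0969 to 0.141). Both also lost it with the length trend removed (adjusted p = 0.118 and 0.0602), and without WT 3 and CKO 2 together Kpna2 lost its call (adjusted p = 0.0718).

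Many nuclear genes of oxidative phosphorylation were called higher in complexes I, III and IV and ATP synthase, and 0 were called lower. With 1.4% of all tested genes called lower, 0 falls in a list says little, here and in the lists below. Complex I, which takes electrons from NADH, had 25 of 37 tested subunits called higher, with a median log2 fold change of 1.80. Complex III had 5 of 9 (median 1.81), complex IV 8 of 15 (median 1.20) and ATP synthase 13 of 19 (median 1.86), against 6.44% and a median of -0.001 over all tested genes. Complex II had 1 of 4, Sdhb, whose call was lost without any 1 of WT 1, WT 2, WT 3, CKO 2 or CKO 3 (adjusted p = 0.0725 to 0.132). The sum of complex II was 258, 249 and 363 CPM in WT and 302, 258 and 266 CPM in CKO, with overlap.

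In complex I the accessory subunit Ndufa2 measured 10.6, 12.4 and 13.3 CPM in WT and 45.1, 151 and 69.5 CPM in CKO. CKO 2 was the highest library and the groups lay well apart (log2 fold change 2.87, SE 0.39, adjusted p = 0.000592). Ndufa7 measured 2.96, 5.49 and 1.66 CPM in WT and 16.6, 56.2 and 34.0 CPM in CKO, with no overlap (log2 fold change 3.40, SE 0.50, adjusted p = 0.00108). Ndufc1 (3.74) and Ndufb9 (2.42) were the next by p-value.

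Of complex III, Uqcrq, a small subunit, measured 9.63, 8.51 and 9.53 CPM in WT and 27.8, 77.5 and 38.6 CPM in CKO, and again CKO 2 was highest (log2 fold change 2.38, SE 0.37, adjusted p = 0.0015). Uqcrh (2.67) and Uqcr10 (2.30) also rose. Of complex IV, Cox7b measured 4.68, 6.06 and 3.15 CPM in WT and 24.3, 89.4 and 29.6 CPM in CKO, with CKO 1 and CKO 3 close together and CKO 2 far above both (log2 fold change 3.36, SE 0.47, adjusted p = 0.000852). Cox4i1, the largest nuclear-encoded subunit, measured 5.66, 2.90 and 4.55 CPM in WT and 18.2, 41.1 and 18.8 CPM in CKO, with no overlap (log2 fold change 2.57, SE 0.41, adjusted p = 0.00178).

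Of ATP synthase, Atp5j, the coupling factor of the stalk, measured 3.41, 5.72 and 2.58 CPM in WT and 27.1, 59.9 and 26.1 CPM in CKO. All CKO libraries were above all WT libraries (log2 fold change 3.27, SE 0.42, adjusted p = 0.000466). Atp5e, the smallest subunit of the F1 part, measured 10.3, 14.4 and 10.5 CPM in WT and 43.7, 141 and 55.5 CPM in CKO, also without overlap (log2 fold change 2.77, SE 0.40, adjusted p = 0.00103), and Atp5md (2.92) rose.

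Not every subunit moved this way. The catalytic subunit Atp5b, named after its values were seen, measured 413, 364 and 428 CPM in WT and 306, 271 and 249 CPM in CKO, lower in each CKO library than in any WT library, and did not pass (log2 fold change -0.54, SE 0.23, adjusted p = 0.166). Uqcrc2, a core subunit of complex III, measured 413, 338 and 463 CPM in WT and 393, 186 and 301 CPM in CKO, with overlap (-0.46, adjusted p = 0.351), and Ndufa10 of complex I and Sdha of complex II had log2 fold changes of -0.44 and -0.50 (adjusted p = 0.325 and 0.288). The coding sequences of these 4 genes were 1065 to 1992 bases long, and those of the risers named here of complexes I, III and IV and of ATP synthase 156 to 537 bases; that of Sdhb was 846 bases.

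Summed over all its listed subunits, complex I stood at 1122, 1242 and 1262 CPM in WT 1, 2 and 3 and at 1568, 2736 and 2413 CPM in CKO. Complex III was at 530, 491 and 560 CPM in WT and 719, 964 and 849 CPM in CKO, and ATP synthase at 745, 710.2 and 787 CPM in WT and 968, 1696 and 1205 CPM in CKO. In each of these sums CKO 1 was the lowest CKO library and still above every WT library. The counts of risers were smaller without CKO 2 (13 in complex I and 4 in complex IV) and without WT 1 (5 in complex IV), and without WT 3 and CKO 2 together they were 12, 4, 4 and 10 in complexes I, III and IV and ATP synthase. With the length trend removed they were 9 in complex I, 2 in complex III, 3 in complex IV and 4 in ATP synthase, with 1 fall in complex I and 3 in complex IV, and of the genes named Uqcr10 lost its call (adjusted p = 0.125).

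Assembly and import followed in part. Of 43 assembly factors of the respiratory chain 8 rose (18.6%, against 6.44% of all tested genes) and 0 fell (median 0.32). Among the risers were Pet100, the copper chaperone Cox17 (3.83) and Cox16 (2.22). Of 30 genes of protein import 8 rose (26.7%) and 0 fell (median 1.08). Timm9, a chaperone of the intermembrane space, measured 47.5, 39.2 and 37.9 CPM in WT and 129, 314 and 213 CPM in CKO, with a wide gap between the groups (log2 fold change 2.40, SE 0.31, adjusted p = 0.000468). Tomm6, a small subunit of the outer-membrane pore, measured 13.5, 14.5 and 8.88 CPM in WT and 40.7, 91.2 and 116 CPM in CKO, and CKO 3 was highest here (log2 fold change 2.75, SE 0.37, adjusted p = 0.000584).

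Tomm40, the channel of that pore, rose by 3.37 and lost its call without CKO 2 (adjusted p = 0.0696). Timm23, the channel of the inner membrane, named after its values were seen, had a log2 fold change of -0.31 (adjusted p = 0.607). Import depended on single libraries. It had 15 risers without CKO 1, 2 without CKO 2, 4 without CKO 3, 3 without WT 1, 3 without WT 2 and 4 without WT 3. Assembly factors had 13 without CKO 1 and 5 without CKO 2, CKO 3, WT 2 or WT 3. With the length trend removed each of the 2 lists had 5 risers, with 2 falls in import and 1 among assembly factors.

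Ribosomal protein genes gave the most risers of any list. Of 78 tested genes of the cytosolic ribosome 45 rose and 0 fell, and the median log2 fold change was 1.69. Their sum was 1551, 1553 and 1539 CPM in WT 1, 2 and 3 and 2488, 4942 and 3090 CPM in CKO 1, 2 and 3, so the WT libraries were nearly equal and the CKO libraries spread widely above them. Rpl5, which carries 5S rRNA into the large subunit, measured 50.6, 51.8 and 39.8 CPM in WT and 213, 484 and 217 CPM in CKO. CKO 1 and CKO 3 were alike and CKO 2 higher, all far above WT (log2 fold change 2.68, SE 0.33, adjusted p = 0.000309). Rps29, a zinc-binding protein of the small subunit, measured 21.0, 13.8 and 11.8 CPM in WT and 71.3, 175 and 86.8 CPM in CKO, with the same order (log2 fold change 2.84, SE 0.36, adjusted p = 0.000426).

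Rps13 (3.29) and Rpl39 (3.62) followed by p-value. The count was 25 without CKO 2, 15 without WT 3 and CKO 2, and 22 with the length trend removed, where 2 fell. Ribosomal protein genes have many processed pseudogenes, and the sources used here do not say how the authors' counting split such reads. In the mitochondrial ribosome 14 of 77 rose and 0 fell (median 0.71), with Mrpl33, Mrpl30 (2.59) and Mrpl28 (2.69) first by p-value. That count was 27 without CKO 1, 6 without CKO 2, 9 without WT 1 and 7 with the length trend removed, where 3 fell.

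**Figure D2:**
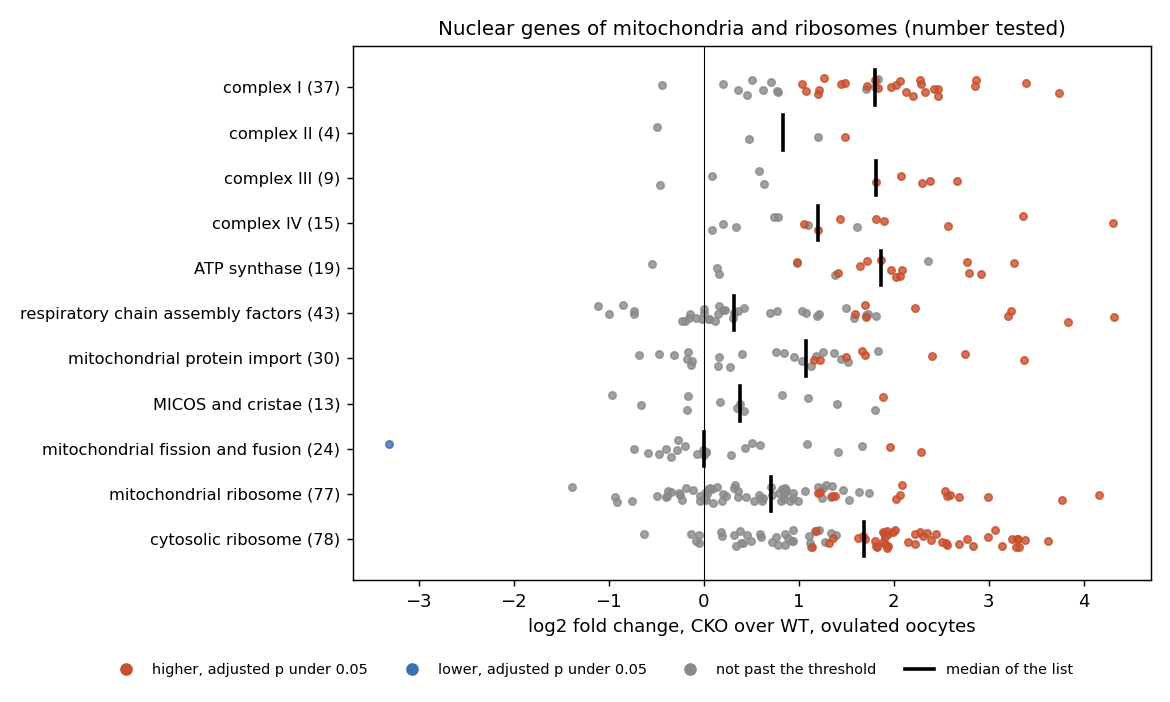
Log2 fold change, CKO over WT, of each tested member of the respiratory chain complexes, ATP synthase, the ribosomes, and assembly, import, cristae and fission genes, 1 point per gene, red where called higher, blue where called lower and grey otherwise, with a bar at the list's median. The medians are 1.80 in complex I and 1.69 in the cytosolic ribosome, and the 1 blue point is Mff.

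Among factors that work on the ribosome the share of risers differed by list. Of 63 initiation and elongation factors 10 rose (15.9%, against 6.44% of all tested genes) and 0 fell, with a median of 0.20. Eif2s3x, a subunit of the factor that brings the initiator tRNA, measured 12.2, 17.7 and 10.0 CPM in WT and 36.5, 73.0 and 73.0 CPM in CKO, with no overlap (log2 fold change 2.19, SE 0.34, adjusted p = 0.0015). The list had 1 riser without CKO 2, 1 without WT 3, 4 without WT 1, 5 without WT 2, and 5 risers and 1 fall with the length trend removed. Of 28 aminoacyl-tRNA synthetases 2 rose, Rars and Qars (7.1%, near the 6.44% of all tested genes). That list had 0 risers without CKO 2, WT 2 or WT 3 and 1 without WT 1.

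Among genes that define the oocyte 7 of 30 rose (23.3%, against 6.44% of all tested genes) and 0 fell, at a median of 0.08. With the length trend removed 5 rose and 1 fell. The zona pellucida, the coat of the egg, had the most abundant of these. Zp2, the coat protein that sperm bind, measured 167, 156 and 118 CPM in WT and 597, 964 and 665 CPM in CKO. CKO 2 was again highest, and every CKO library was far above WT (log2 fold change 2.33, SE 0.27, adjusted p = 0.000229). Zp3, another coat protein, measured 278, 181 and 233 CPM in WT and 528, 751 and 557 CPM in CKO, with no overlap (log2 fold change 1.41, SE 0.26, adjusted p = 0.00412).

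Zp1, which cross-links the coat and was named after its values were seen, measured 123, 77.5 and 134 CPM in WT and 195, 252 and 148 CPM in CKO and did not pass (log2 fold change 0.83, SE 0.28, adjusted p = 0.0814), although its groups did not overlap. The homeobox factor Lhx8 (1.77) and Figla rose, whereas the secreted growth factors Gdf9 (-0.79, adjusted p = 0.166) and Bmp15 (0.05, adjusted p = 0.923) did not pass. In the subcortical maternal complex, which the embryo needs for its first divisions, 3 of 8 rose and 0 fell. Padi6 measured 200.5, 184 and 223 CPM in WT and 481, 865 and 463 CPM in CKO, all CKO above all WT (log2 fold change 1.58, SE 0.28, adjusted p = 0.00331), and Khdc3 measured 35.1, 14.5 and 15.7 CPM in WT and 48.6, 171 and 171 CPM in CKO, where CKO 1 stayed much nearer to WT than CKO 2 and CKO 3 (log2 fold change 2.58, SE 0.45, adjusted p = 0.00286). Padi6 lost its call in 1 fit over the 4 groups (adjusted p = 0.0604), and Khdc3 and Lhx8 lost theirs without WT 3 and CKO 2 together (adjusted p = 0.259 and 0.0824).

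Of 18 genes of the oocyte Fbxw cluster, F-box proteins expressed in the oocyte, 5 rose and 0 fell (median 0.32). Fbxw26 (1.82), Fbxw21 (1.61) and Fbxw13 (1.45) came first. These genes are near copies of each other, so reads may be split uncertainly among them, and the count was 3 without CKO 2, WT 1 or WT 2 and 3 with the length trend removed. Of 12 oocyte Nlrp genes 0 rose and 1, Nlrp4b, fell.

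Regulators of stored mRNA were called higher at shares below the 6.44% of all tested genes. These were 3.0% for storage and translation, 2.6% for decay and 4.8% for cleavage and polyadenylation. At 1 called member each they say nothing particular of the lists. Of 33 genes for storage and translation of maternal mRNA 1 rose, Ybx2, an RNA-binding protein that packs stored mRNA, which measured 8.73, 5.98 and 4.37 CPM in WT and 9.82, 37.3 and 28.6 CPM in CKO, without overlap (log2 fold change 1.99, SE 0.45, adjusted p = 0.0133), and lost its call without CKO 2 (adjusted p = 0.0895) or WT 3 (adjusted p = 0.0761). Of 39 genes of maternal mRNA decay 1 rose, Tob1, an adaptor of the CCR4-NOT deadenylase (2.58, adjusted p = 0.00316). Of 21 genes of cleavage and polyadenylation 1 rose, Cpsf4l (2.41, adjusted p = 0.00524). Both were lost without WT 3 and CKO 2 together (adjusted p = 0.0559 for Tob1 and 0.0814 for Cpsf4l). The summed decay genes stood at 15022, 14838 and 18834 CPM in WT and 14720, 10358 and 13433 CPM in CKO.

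In the meiotic cell cycle 6 of 49 rose (12.2%, against 6.44% of all tested genes) and 0 fell, at a median of 0.00. Fzr1, an activator of the anaphase-promoting complex that holds oocytes in prophase, measured 12.5, 7.68 and 5.73 CPM in WT and 22.8, 59.4 and 40.8 CPM in CKO, with no overlap (log2 fold change 2.24, SE 0.39, adjusted p = 0.00308). Cdc25b, the phosphatase that starts meiotic resumption by activating CDK1, measured 15.8, 14.8 and 7.00 CPM in WT and 28.9, 92.1 and 66.2 CPM in CKO, with CKO 1 nearest to WT (log2 fold change 2.31, SE 0.41, adjusted p = 0.00331). Birc5, the survivin subunit of the chromosomal passenger complex, measured 232, 222 and 206 CPM in WT and 443, 976 and 1017 CPM in CKO. CKO 2 and CKO 3 were alike and CKO 1 lower, all above WT (log2 fold change 1.88, SE 0.30, adjusted p = 0.00187).

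Birc5 was 1 of 3 risers among 38 spindle and kinetochore genes, with 0 falls. The kinase gene Mos, which keeps the second meiotic arrest and was named after its values were seen, had a log2 fold change of -0.74 (adjusted p = 0.116). The meiotic count was 2 without CKO 2, and 3 without WT 1 or WT 2, and with the length trend removed 6 rose and 4 fell. The spindle count was 5 without CKO 1 and 1 without CKO 2, WT 1 or WT 2, and with the length trend removed 2 rose and 2 fell. Without WT 3 and CKO 2 together Fzr1 and Cdc25b lost their calls (adjusted p = 0.0636 and 0.067).

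The actin list moved both ways, with 7 of 32 higher (21.9%) and 2 lower (6.2%), against 6.44% and 1.4% of all tested genes. Tmsb10, a thymosin that binds free actin, measured 40.3, 39.6 and 23.8 CPM in WT and 176, 646 and 631 CPM in CKO. CKO 2 and CKO 3 were alike and CKO 1 well below them, yet above WT (log2 fold change 3.81, SE 0.43, adjusted p = 0.000198). Its call was lost without WT 3 and CKO 2 together (adjusted p = 0.0623). Arpc1a of the Arp2/3 complex rose by 3.00, while Cnn3, a calponin that binds actin filaments, fell (-0.93, adjusted p = 0.042). The rises numbered 2 without CKO 2, 3 without WT 2 and 2 without WT 3. The falls numbered 0 without CKO 2, WT 1 or WT 3 and 1 without CKO 1, CKO 3 or WT 2.

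In protein turnover the proteasome and ubiquitin lists had risers and 0 falls, beside 6.44% higher and 1.4% lower over all tested genes. Of 29 genes of autophagy and mitophagy 2 rose (6.9%) and 1 fell (3.4%), and without CKO 2 there were 0 of each. Of 34 proteasome subunits 5 rose (median 0.33), with Psmb7, Psmb5 (2.79) and Psmb4 (3.08) of the core particle first. Of 44 genes of ubiquitin conjugation 9 rose (median 0.24), among them Skp1a, Eloc and Ubb. The proteasome count was 8 without CKO 1, and 3 without CKO 2, WT 1 or WT 3 or with the length trend removed, where 2 fell. The ubiquitin count was 14 without CKO 1, 3 without CKO 2, WT 2 or WT 3, 5 without CKO 3, 2 without WT 1 and 5 with the length trend removed, where 1 fell. Of 19 subunits of the vacuolar proton pump 5 rose and 0 fell (median 0.29), and 3 without CKO 2, WT 1 or WT 2 or with the length trend removed.

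Among 31 antioxidant genes 7 rose (22.6%) and 1 fell (3.2%), at a median of 0.55, against 6.44% and 1.4% of all tested genes. Sod1, the cytosolic superoxide dismutase, measured 83.2, 64.1 and 73.9 CPM in WT and 177, 578 and 163 CPM in CKO. CKO 2 was far above CKO 1 and CKO 3, and these were above WT (log2 fold change 2.05, SE 0.40, adjusted p = 0.00593). By p-value Glrx5 (2.64), a mitochondrial glutaredoxin of iron-sulfur cluster assembly, came first, and Prdx5 (1.92), a peroxiredoxin, came next after Sod1. The count of rises was 3 without CKO 2 or WT 2, 4 without WT 1, and 4 with the length trend removed, where Sod1 lost its call (adjusted p = 0.12).

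In calcium handling 3 of 30 rose (10.0%) and 1 fell (3.3%), against 6.44% and 1.4% of all tested genes. Calm2, which encodes calmodulin, measured 176, 216 and 104 CPM in WT and 381, 653 and 765 CPM in CKO, with no overlap (log2 fold change 1.86, SE 0.32, adjusted p = 0.00275). Vdac2, the voltage-dependent channel of the outer mitochondrial membrane, measured 126, 124 and 196 CPM in WT and 47.4, 59.1 and 73.6 CPM in CKO, and here every CKO library was below every WT library (log2 fold change -1.31, SE 0.27, adjusted p = 0.00868). The list had 8 risers without CKO 1, and Vdac2 lost its call without WT 3 and CKO 2 together (adjusted p = 0.086).

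In energy metabolism outside the respiratory chain, 3 of 21 genes of the tricarboxylic acid cycle rose (14.3%, against 6.44% of all tested genes) and 0 fell (median 0.10), but 0 passed without CKO 2, WT 2 or WT 3 and 1 without WT 1. Of 17 genes of fatty acid oxidation 0 were called, with the 2 most abundant, Etfa and Acadm, at -0.45 (adjusted p = 0.326) and -0.18 (adjusted p = 0.737); for Acadm the sign turned on FPKM and with quality weights. Of 15 genes of glycolysis 0 were called at a median of 0.43. Its most abundant member Ldhb, a lactate dehydrogenase subunit, measured 3854, 3133 and 2776 CPM in WT and 5737, 4533 and 6184 CPM in CKO, without overlap but short of the threshold (log2 fold change 0.75, SE 0.27, adjusted p = 0.096).

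Of 35 carriers of the inner mitochondrial membrane 2 rose (5.7%) and 1 fell (2.9%), against 6.44% and 1.4% of all tested genes. The one that fell, Slc25a13, which exchanges aspartate for glutamate, measured 28.7, 29.4 and 39.7 CPM in WT and 11.9, 12.9 and 7.25 CPM in CKO, with no overlap (log2 fold change -1.61, SE 0.32, adjusted p = 0.00657). The rises numbered 1 without CKO 2, CKO 3 or WT 3. Among 25 stress genes 1 was higher (4.0%, below the share of all tested genes), the transcription factor Atf4 (1.56). Lower were 2 (8.0%), the mitochondrial protease Htra2 (-0.98) and the phosphatase subunit Ppp1r15a (-0.88). Of these falls 0 passed without CKO 2, CKO 3, WT 1, WT 2 or WT 3, and Atf4 lost its call without CKO 2, WT 2 or WT 3 (adjusted p = 0.0607 to 0.125).

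Further lists had 5 risers each. Of 66 Rab and Arf GTPases 5 rose (7.6%, near the 6.44% of all tested genes) and 0 fell (median 0.23), and 0 rose without CKO 2. In the spliceosome core 5 of 47 rose and 0 fell at a median of -0.02, with Snrnp25, Lsm4 (3.30) and Lsm6 (1.58) first. With the length trend removed the balance of that list turned, with 4 higher and 8 lower, and Lsm4 lost its call without WT 3 and CKO 2 together (adjusted p = 0.0814). Among nuclear RNA polymerase subunits 5 of 27 rose and 0 fell (median 0.51), with the small shared subunits Polr1d (2.04) and Polr2l (1.54) first, and 8 rose without CKO 1, 3 without CKO 2, WT 1 or WT 2, and 4 with the length trend removed, where 2 fell. Of 67 heat shock and chaperonin genes 5 rose and 1 fell. Dnaja1, a co-chaperone of HSP70, measured 141, 138 and 103 CPM in WT and 298, 499.5 and 411 CPM in CKO, with no overlap (log2 fold change 1.66, SE 0.26, adjusted p = 0.00178). The chaperonin subunits Cct3 (1.66) and Tcp1 (1.43) rose as well, and the list had 9 risers without CKO 1. Of 38 genes of folding in the endoplasmic reticulum 5 rose and 1 fell, among the risers the signal peptidase subunit Spcs1 (2.08), and 3 rose and 3 fell with the length trend removed. Shares near the 6.44% of all genes, such as those of the heat shock list, of fission and fusion or of spindle genes, say nothing particular of a list.

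**Figure D3:**
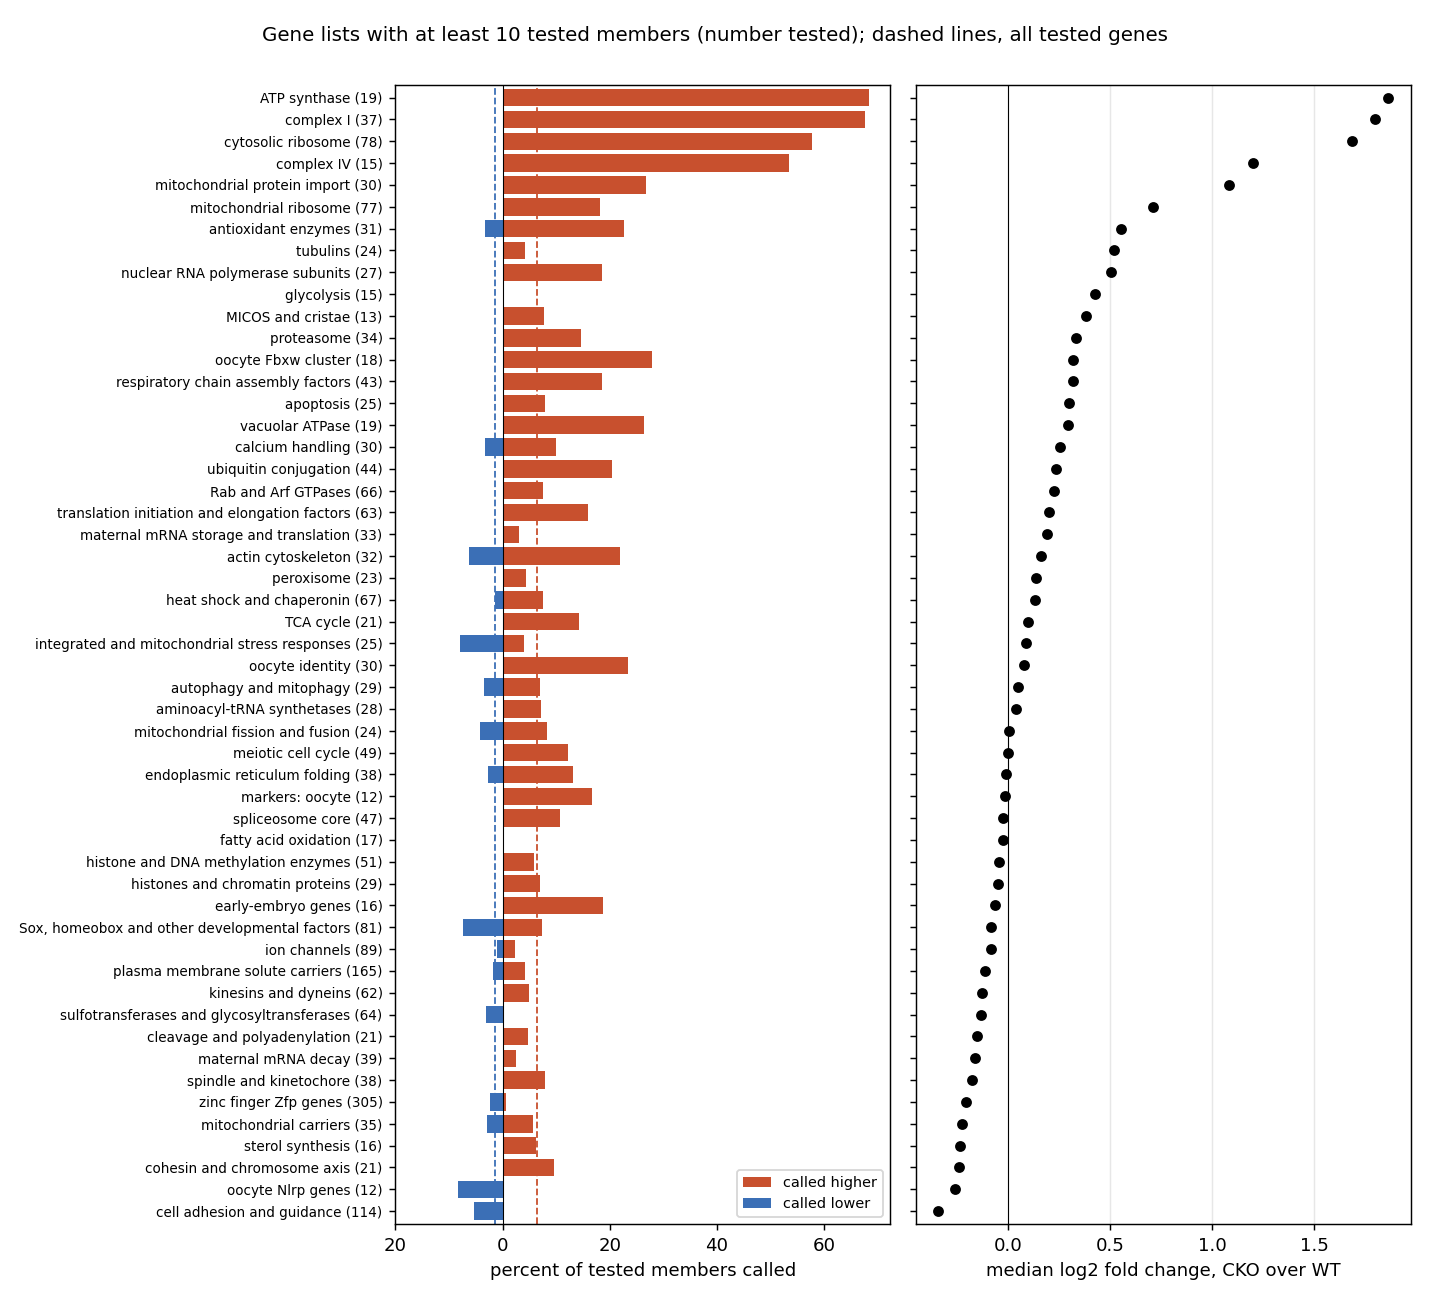
Percent of tested members called higher (bars to the right) and lower (bars to the left) in CKO for each gene list with at least 10 tested members (left), with dashed lines at the shares over all tested genes, 6.44% higher and 1.4% lower. The right panel gives each list's median log2 fold change. Complex I, ATP synthase and the cytosolic ribosome reach farthest to the right in the left panel.

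The falls formed no run within a pathway list comparable in count to the rises. Beside Mff, the largest fall under the rule given for the rises was of Chst5, a sulfotransferase of glycan chains. It measured 9.51, 6.13 and 13.4 CPM in WT and 0.915, 1.00 and 1.84 CPM in CKO. The groups were far apart (log2 fold change -2.95, SE 0.47, adjusted p = 0.00178). Mdga2, an adhesion protein of the cell surface, measured 5.13, 7.49 and 12.4 CPM in WT and 0.915, 0.967 and 1.88 CPM in CKO, with WT 3 highest (log2 fold change -2.73, SE 0.49, adjusted p = 0.00358). Nyap2, an adaptor of phosphoinositide 3-kinase signalling, measured 6.22, 4.29 and 6.56 CPM in WT and 1.13, 0.842 and 0.920 CPM in CKO, with no overlap (log2 fold change -2.56, SE 0.47, adjusted p = 0.004).

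Bbx, an HMG-box protein, measured 16.1, 17.9 and 14.3 CPM in WT and 2.99, 3.59 and 3.13 CPM in CKO. Both groups were tight and well separated (log2 fold change -2.31, SE 0.35, adjusted p = 0.00127). Fstl5, a follistatin-like secreted protein, measured 8.24, 9.79 and 8.22 CPM in WT and 3.34, 1.06 and 1.36 CPM in CKO, with CKO 1 the highest CKO library (log2 fold change -2.19, SE 0.48, adjusted p = 0.0109). Lrmp (-2.47), Slco4c1, an organic anion transporter (-2.22), Sox6 (-2.14), Prss8, a serine protease (-2.06), and Olfr1463, an olfactory receptor gene (-1.96), completed the 10 largest falls under that rule. Of all called falls 25 passed -2, so some genes outside the rule fell by more than the last of these.

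Those 5 calls rested on more than 1 library each. Lrmp and Slco4c1 were lost without CKO 2 or WT 3 (adjusted p = 0.0541 to 0.0899), Sox6 without WT 2 or WT 3 (adjusted p = 0.0507 and 0.0542), and Prss8 and Olfr1463 without CKO 2, CKO 3, WT 1 or WT 3 (adjusted p = 0.0524 to 0.188). Mdga2 and Fstl5 were lost without WT 3 and CKO 2 together (adjusted p = 0.0676 and 0.0865).

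The most abundant falls were near a log2 fold change of -1. Smu1, a splicing factor, measured 1099, 954 and 1537 CPM in WT and 749.9, 286 and 499 CPM in CKO, with no overlap (log2 fold change -1.23, SE 0.33, adjusted p = 0.0323). Zc3h6, a CCCH zinc finger protein, measured 999, 937 and 1426 CPM in WT and 636, 279.5 and 468 CPM in CKO, and CKO 2 was lowest (log2 fold change -1.28, SE 0.31, adjusted p = 0.0187). Surf4, a receptor that loads cargo for export from the endoplasmic reticulum, measured 813, 523 and 1045 CPM in WT and 377, 323 and 339.9 CPM in CKO, with the CKO libraries alike (log2 fold change -1.20, SE 0.27, adjusted p = 0.015). Hsp90ab1, a cytosolic chaperone, measured 594, 618 and 472 CPM in WT and 335, 295 and 263 CPM in CKO, where WT 3 was the lowest WT library (log2 fold change -0.92, SE 0.24, adjusted p = 0.0291).

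Angel2 (-0.94), a relative of the CCR4 deadenylases, Nlrp4b (-0.93), the DNA glycosylase Neil3 (-1.09) and Cnn3 were the others of the 8. All 8 lost their calls without CKO 2, and at least 1 other left-out library also ended each of them. The adjusted p was 0.135, 0.0837, 0.152, 0.172, 0.163, 0.16, 0.074 and 0.0982 without CKO 2 for Smu1, Zc3h6, Angel2, Cnn3, Nlrp4b, Neil3, Surf4 and Hsp90ab1, and 0.127, 0.0819, 0.104, 0.137, 0.115, 0.138 and 0.0635 without WT 3 for the first 7 of them. Hsp90ab1 was lost without CKO 3, WT 1 or WT 2 (adjusted p = 0.102 to 0.132).

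Over all tested genes 1.4% fell. By list, 6 of 114 tested genes of cell adhesion and guidance fell (5.3%) and 0 rose, at a median of -0.34. Among them Lrrtm3, a leucine-rich repeat adhesion protein, measured 21.2, 22.9 and 23.6 CPM in WT and 6.05, 3.03 and 9.24 CPM in CKO, with no overlap (log2 fold change -1.89, SE 0.39, adjusted p = 0.00814), a call lost without WT 3 and CKO 2 together (adjusted p = 0.0526). The falls numbered 13 without CKO 1, 3 without CKO 2 or WT 3, and 0 without WT 3 and CKO 2 together. Of 305 zinc finger genes named Zfp, 7 fell (2.3%) and 2 rose (median -0.21), and 20 fell without CKO 1, 1 without CKO 2, WT 1 or WT 3, 2 without CKO 3 and 3 without WT 2. Of 81 Sox, homeobox and other developmental factors 6 fell and 6 rose (7.4% each, beside 1.4% and 6.44% of all genes), and 1 or 2 of each passed without CKO 2, WT 1 or WT 3, and 2 falls without CKO 3.

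Rises were more frequent among short transcripts. Tested genes were put into 5 classes of equal size by effective length, the length that the deposited counts and FPKM imply. In the shortest class (median 916 bases) 18.59% of genes were called higher, and in the next 4 classes 5.96%, 4.14%, 2.92% and 1.1%, down to the longest (median 6012 bases). Calls lower were 0.97%, 2.07%, 1.39%, 1.56% and 1.06%, with no such order. By coding length, from 1 GENCODE transcript per gene, the shortest class had 17.07% and the longest 1.54% called higher.

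The median coding sequence was 690 bases for genes called higher, 1345.5 for genes called lower and 1404 over all tested genes with a transcript. The median 3' UTR was 395, 1026.5 and 976 bases, and the median GC content 51.935%, 47.297% and 49.261%. With the length trend of each library removed 901 genes were called, 674 of them also called without that step. Beyond that fit, the part of transcript length in the rises was not tested.

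**Figure D4:**
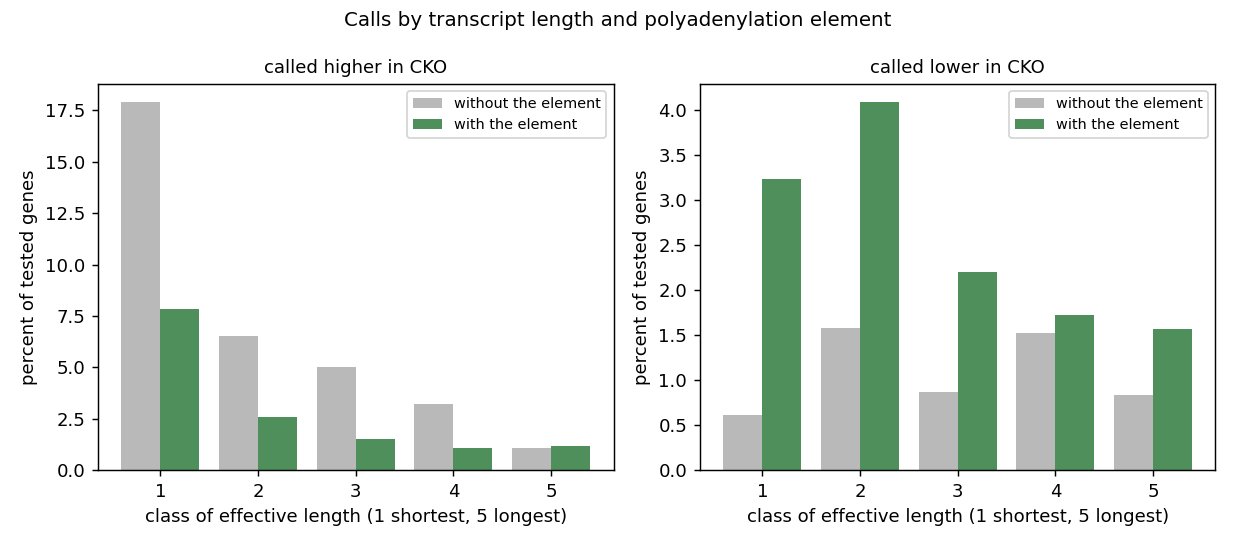
Percent of tested genes called higher (left) or lower (right) in CKO in 5 classes of effective length, for genes with the CPE (green) and without it (grey). The classes were drawn anew among genes with a 3' UTR of at least 100 bases, so they differ from those over all tested genes. In the shortest class the share called higher is 7.84% with the element and 17.9% without, and in the longest class 1.18% and 1.08%.

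The 3' end was examined because cytoplasmic polyadenylation acts there. The cytoplasmic polyadenylation element (CPE) is bound by CPEB proteins, which recruit the machinery that lengthens the tail of stored mRNAs as meiosis resumes. Here it was searched as TTTTAT or TTTTAAT on the transcript strand alone, in the last 100 bases of the annotated 3' UTR, a search chosen after seeing the data. It can overlap the polyadenylation signal AATAAA, as in TTTTAATAAA. The annotated ends may not be those used in oocytes, and a match is not shown to be a bound site.

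The sites below are 30 bases each, 5' to 3' on the transcript strand, from GENCODE M21 transcripts on GRCm38. The first 6 come from genes that fell, 5 of them among the 10 largest falls and Surf4 among the most abundant, and capitals mark the CPE.
Chst5, chr8:111889183-111889212, minus strand: TTTTAATgaatctttgatttgtcctgagat
Nyap2, chr1:81341697-81341726, plus strand: TTTTATgatattttgtgcttatttatttgt
Lrmp, chr6:145174856-145174885, plus strand: TTTTAATgagctttctgagtgagaggcatc
Slco4c1, chr1:96816270-96816299, minus strand: aatTTTTATtaaatcagaatatttatatta
Fstl5, chr3:76709990-76710019, plus strand: aacctcttatgTTTTATtgcttgtgtgctc
Surf4, chr2:26920095-26920124, minus strand: TTTTATgctgtaTTTTATatcttagttgtg
The next 4 come from genes among the 10 largest rises, which have no CPE in the window, and capitals mark AATAAA.
Chchd2, chr5:129881161-129881190, minus strand: tgagttaaaaaaAATAAAttggttattctg
Cox7c, chr13:86044819-86044848, minus strand: gaaaaaattgtaAATAAActaatgacataa
Hint1, chr11:54870462-54870491, plus strand: aattctgtgcctAATAAAagacattgttgc
Psmb7, chr2:38588039-38588068, minus strand: ttaaAATAAAtaAATAAAaagacaaaaaac
Risers with a CPE exist too, and 2 are shown for contrast, with the CPE in capitals. In the Rpl5 site the element overlaps AATAAA.
Rpl5, chr5:107908976-107909005, plus strand: actTTTTAATaaatgagtcatttgaattta
Tomm6, chr17:47686702-47686731, minus strand: TTTTATtcTTTTAATaagaaacttattaca

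Of 10998 tested genes with a 3' UTR of at least 100 bases, 2283 had the element, or 20.8%. It was present in 59 of 651 genes called higher (9.1%), in 21.2% of genes not called and in 58 of 151 genes called lower (38.4%). Not counting elements that overlap AATAAA, the shares were 8.6%, 20.1% and 37.1%, against 19.7% over all. Among the 10 largest rises 0 of the 9 with such a 3' UTR had it, and among the 10 largest falls 5 of 8; Bbx, Sox6 and Prss8 fell without it in that window. The median log2 fold change was -0.219 for genes with the element and 0.056 for genes without.

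Other U-rich hexamers went the same way, so these counts do not single out the element. TTTTTA was in 7.5% of genes called higher, 19.8% of those not called and 30.5% of those called lower, and TATTTT in 9.5%, 19.5% and 33.8%. The Pumilio-type motif TGTANATA was in 5.2%, 5.1% and 4.6%, and AATAAA itself in 57.1%, 67.8% and 72.8%. These U-rich motifs share runs of T and can overlap in 1 transcript.

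Length and element were then crossed, in 5 length classes drawn anew among genes with a 3' UTR of at least 100 bases. In the shortest class 7.84% of genes with the CPE and 17.9% of those without were called higher, and 3.24% and 0.61% lower. In the second class the shares higher were 2.59% and 6.51% and lower 4.09% and 1.58%, while in the longest class they were 1.18% and 1.08% higher and 1.57% and 0.84% lower. With the length trend removed the CPE was in 46 of 480 genes called higher (9.6%) and 118 of 320 called lower (36.9%), with 20.9% among those not called.

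The difference can also be read in each library alone, as the median log2(CPM + 1) of genes with the CPE minus that of genes without. It was 1.222, 1.256 and 1.25 in ovulated WT 1, 2 and 3 and 1.1, 0.668 and 0.943 in ovulated CKO 1, 2 and 3. The WT libraries were nearly equal and every CKO library was lower, most of all CKO 2. The difference of the means was -0.339 (two-sided exact permutation test, p = 0.1, the smallest that 3 against 3 allows), and the value was -0.221 without CKO 2. These are the counts that gave the calls, so it is no independent support for them.

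In GV oocytes the same contrast was 0.187, 0.252, 0.299 and 0.182 in WT and 0.319, 0.238, 0.272 and 0.247 in CKO, and the groups overlapped (difference 0.039, two-sided exact permutation test, p = 0.286, with 0.0286 the smallest possible for 4 against 4). Within the length classes drawn anew the ovulated difference was -0.622 in the shortest and -0.0534 in the longest (exact permutation p = 0.1 and 0.6). Because cDNA was primed at the poly(A) tail, the number of transcripts and the length of their tails cannot be told apart.

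**Figure D5:**
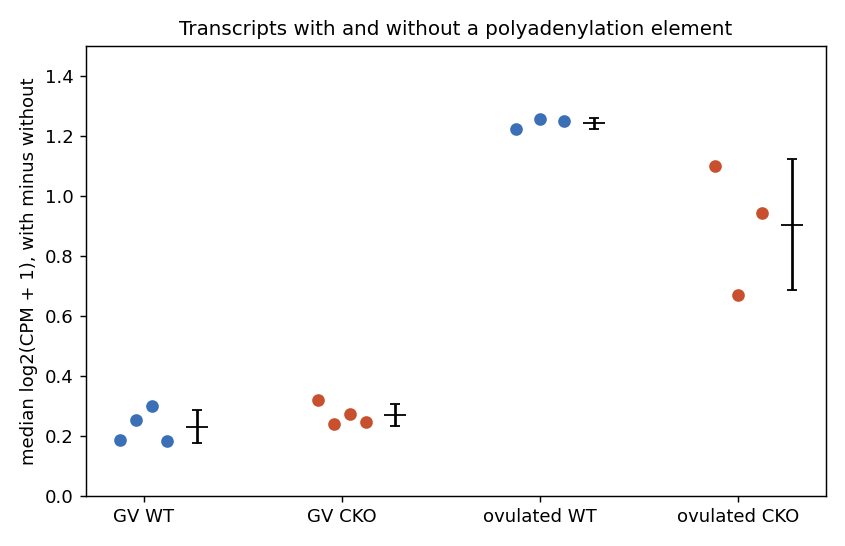
Median log2(CPM + 1) of genes with the CPE minus that of genes without, 1 point per library, by stage and genotype, with the mean and SD beside the points. The 3 ovulated WT libraries sit at 1.222 to 1.256 and the 3 ovulated CKO libraries at 0.668 to 1.1, while the 8 GV libraries sit at 0.182 to 0.319.

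Many of the genes named for a rise showed a larger difference between the genotypes after ovulation than before it. In 1 fit over the 4 groups, 430 of 13199 genes (3.26%) passed for the interaction of genotype and stage, 419 with a CKO effect shifted upwards after ovulation and 11 with one shifted downwards. At the GV stage Chchd2 averaged 596 ± 121 CPM in WT (SD, n = 4) against 617 ± 195 CPM in CKO (SD, n = 4). After ovulation it averaged 7.02 ± 2.81 CPM in WT (SD, n = 3) against 155 ± 102 CPM in CKO (SD, n = 3). The GV means were close to each other and above both ovulated means, and the interaction was 4.41, SE 0.58, adjusted p = 0.00094 on the log2 scale. Rps13 averaged 329 ± 70.3 CPM in GV WT, 393 ± 109 CPM in GV CKO, 6.51 ± 1.26 CPM in WT after ovulation and 62.2 ± 51.4 CPM in CKO after it (3.00, SE 0.57, adjusted p = 0.00823). For Mff the interaction did not pass (0.91, SE 0.46, adjusted p = 0.358). Leaving out ovulated CKO 1 raised the count to 1006, and leaving out ovulated CKO 2 lowered it to 129. It was 269 without WT 1 and 224 without WT 2 of the ovulated libraries, and 231 to 239 when GV WT 1, 3 or 4 was left out. Among the 10 largest and the 8 most abundant falls no gene passed for the interaction (adjusted p = 0.178 to 0.76). In GV oocytes too the mean of each of these genes was lower in CKO than in WT. Nyap2 averaged 12.3 ± 3.15 CPM in GV WT and 4.46 ± 2.13 CPM in GV CKO, and Hsp90ab1 273 ± 74.6 CPM and 170 ± 36.8 CPM (SD, n = 4).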

How the data were processed

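RNA of 3 WT and 3 CKO libraries of ovulated mouse oocytes was analysed, with 4 WT and 4 CKO libraries of GV oocytes used for the stage comparison. The authors deposited, for each stage, a read count per gene and library and an FPKM table, per the file headers. Since 18.35% of the ovulated values above 0 differed from a whole number by more than 0.001, the authors deposited estimated counts, without normalisation. FPKM, per the file headers, are fragments per length and depth as the authors deposited them. The submitters' processing notes name the build mm10, with aligner and counter not given in the sources used here. For ovulated oocytes 16509 genes are listed, of which 16460 matched RefSeq by gene ID, and 0 of the mitochondrial genome.

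Estimated counts were rounded and fitted with edgeR 4.0.16 in R 4.3.3 (filterByExpr, TMM, robust quasi-likelihood fit), CKO against WT, with Benjamini-Hochberg adjustment over all tested genes and calls at an adjusted p under 0.05. Levels are TMM-normalised CPM of the rounded counts, and SE is derived from the F statistic. The interaction was fitted over the 4 groups on the 16196 genes in both tables. DESeq2 1.42.0 and limma 3.58.1 (quality weights, and a trend fit on log2 FPKM with pseudocounts of 1 and 0.1) were among the alternatives. Effective length is count over FPKM (at least 0.2 FPKM), and its trend was removed per library by loess. Coding and 3' UTR lengths and sequences came from GENCODE M21 transcripts of GRCm38, the assembly of mm10, for 11714 tested genes. The fits were tested on simulated data with as many rises as falls, the same spread for all genes, and no deviant library or length trend. That test cannot speak to calls that are mostly rises, or that follow single libraries or length.

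The comparison, the 59 gene lists and the genes were chosen with earlier results of these data known. Named genes are Mff, the 10 largest rises and falls among called genes without overlap and with at least 5 CPM in 1 group, the 8 most abundant of each, and up to 4 called members of each list by p-value or, where none was called, the 2 most abundant; some of these are left out of the text. Predicted models were not named, and genes outside the rule are marked.

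At 26690765 to 27833650 counts a library, counting error is small for abundant genes, but not for genes near 0 in WT, some of the largest rises among them.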

Additional observations from a re-analysis of the deposited data

Results flagged for a closer look

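Of the 125 genes named in the text, 61 differed between the stages by the interaction test, the CKO minus WT difference in ovulated oocytes less that in GV oocytes (edgeR, adjusted p under 0.05, log2 scale). Over all 13199 genes tested 3.26% passed. Most of the named genes were named for a large or called difference in ovulated oocytes, which is 1 term of the interaction, so their share says nothing beyond that choice. In mitochondrial genes the values were Chchd2 (4.41), Cox7c (3.98), Pet100 (3.91), Mrpl33 (3.71), Cox17 (3.56), Ndufc1 (3.48), Tomm40 (3.42), Ndufa7 (3.35), Cox7b (2.94), Atp5j (2.90), Atp5e (2.76), Mrpl28 (2.62), Glrx5 (2.58), Atp5md (2.52), Cox4i1 (2.45), Tomm6 (2.44), Ndufa2 (2.43), Mrpl30 (2.41), Ndufb9 (2.36), Uqcrh (2.33), Timm9 (2.19), Fis1 (2.11), Uqcrq (2.11), Mtfr1l (2.03), Uqcr10 (1.97), Cox16 (1.83), Mtx2 (1.79). For ribosomal proteins, translation, splicing and RNA polymerase genes they were Snrnp25 (4.26), Lsm4 (4.04), Rpl39 (3.43), Rps13 (3.00), Rps29 (2.54), Rpl5 (2.50), Eif2s3x (1.98), Polr1d (1.82), Lsm6 (1.26). For oocyte genes they were Figla (3.95), Khdc3 (3.85), Cpsf4l (2.67), Zp2 (2.47), Elobl (2.19), Lhx8 (2.08), Fbxw26 (1.80), Zp3 (1.60), Fbxw13 (1.48). The other genes with a more positive difference in ovulated oocytes were Hint1 (3.97), Psmb7 (3.83), Tmsb10 (3.77), Phpt1 (3.70), Dcpp3 (3.68), Arpc1a (3.18), Psmb4 (3.06), Cdc25b (2.55), Fzr1 (2.51), Psmb5 (2.29), Sod1 (2.12), Prdx5 (1.81), Spcs1 (1.76), Cct3 (1.73), Birc5 (1.71), Tcp1 (1.45).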

How the results depend on the processing

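The count of 942 called genes was 1564 with DESeq2, 1953 with limma's quality weights, 1595 in 1 fit over 4 groups, 506 at a mean of at least 10 CPM, 13 on FPKM with no filter, 235 without WT 3 and CKO 2, and 341 to 1652 leaving out 1 library. FPKM settings move the median of all genes to 0.139 and 0.164, so changes there are relative to that. With the replicate number as a block it was 1630 (65.5% higher). Deviations from the group mean correlated at 0.079, 0.023 and 0.201 between same-numbered WT and CKO libraries. Between the other WT and CKO libraries they correlated at -0.179 to 0.084. With 3 libraries a group these values cannot decide whether same-numbered libraries shared a batch, and the labels give only the number. Of called genes named in the text, Khdc3 lost its call under that block (adjusted p = 0.262). The interaction count of 430 was 883 with DESeq2, 262 with the replicate block and 129 to 1006 leaving out 1 library. The share called higher in the shortest class was 26.86% with 10 classes and 17.07% by coding length, against 18.59%. The CPE contrast was -0.622 in length class 1, -0.0534 in class 5, and -0.437 to -0.221 leaving out 1 library. Of 4201 values of named genes and list members under alternatives, 708 lost the call, 23 gained it and 33 changed sign. Nedd8, called higher, was at -0.00928 with the length trend removed, and C1qb, not called, at -0.114. Of other genes not called, Acadm was at 0.0113, 0.0114 and 0.0113 on FPKM, 0.0265 with quality weights and 0.131 without WT 3 and CKO 2. Timm23 was at 0.0982 with quality weights, 0.249 without WT 3 and CKO 2 and -0.635 (without CKO 3) to 0.0446 (without WT 3) leaving out 1 library. Dnm1l was at 0.0882 without CKO 2, -0.0117 (DESeq2), -0.00486 (length trend removed), -0.00164 (no filter), -0.0309 (1 fit over 4 groups), -0.0004 (replicate block), -0.0105 (median of ratios) and -0.0607 to -0.00752 leaving out CKO 1, CKO 3, WT 1 or WT 3. Mfn1 was at -0.234 without WT 3, 0.196, 0.203 and 0.196 on FPKM, 0.00657 (length trend removed), 0.0878 (10 CPM), 0.0109 (replicate block), 0.00745 (upper quartile) and 0.0314 to 0.199 leaving out CKO 3, WT 1 or WT 2. Opa1 was at 0.18 without CKO 2, -0.0128 (1 fit over 4 groups) and -0.157 to -0.0433 without CKO 3 or WT 3. The cause was not tested. Length classes by RefSeq protein length were not run.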
